A study of Homo sapiens with 8 samples.

Results

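The proteasome is the protease that degrades ubiquitin-tagged proteins, and its subunits are encoded by genes whose symbols begin with PSM. The genes described here are the protein-coding genes with a symbol of PSMA to PSMG followed by a number, which gave 49 genes of the 60558 listed and of the 19957 listed as protein-coding. They comprised 8 alpha ring subunits, 3 constitutive catalytic beta subunits, 4 non-catalytic beta subunits, 3 catalytic subunits of the immunoproteasome, the thymic beta subunit PSMB11, 6 ATPases and 3 other subunits of the base, 8 subunits of the lid, 7 assembly chaperones, 4 activators, the inhibitor PI31 (PSMF1) and PSMC3IP. PSMC3IP carries the name only because its protein binds PSMC3. It is a recombination factor and not a subunit.

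Each proteasome has a barrel-shaped core of stacked alpha and beta rings, and 3 of the beta subunits carry the active sites. The regulatory particle, made of a base that unfolds substrates and a lid that removes ubiquitin, caps this barrel. In cells that receive interferon, PSMB8, PSMB9 and PSMB10 are built into new cores in place of PSMB5, PSMB6 and PSMB7, which yields the immunoproteasome. This form is known for producing peptides that fit MHC class I molecules, and the activator PA28 (PSME1 and PSME2) opens the core and is induced by the same cytokine.

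RNA was sequenced from 8 libraries of two-dimensional human intestinal epithelial cells (hIECs), all made from the H9 line of human embryonic stem cells, so that they share a single genetic background. There were 4 groups of 2 libraries each. Normal hIECs received neither agent, and normal hIECs with PM10 received particulate matter 10 (coarse airborne particles) at 100 µg/ml for 7 days. Inflamed hIECs received the cytokines interferon gamma (IFNγ) and tumour necrosis factor alpha (TNFα), each at 50 ng/ml for 10 days, and inflamed hIECs with PM10 received both cytokines and, over the last 7 days, 100 µg/ml PM10. The labels give a treatment of 10 days for every library, and the doses come from the study's methods. Nothing states that the 2 libraries of a group came from separate cultures, so p-values measure the spread between these libraries, which may be technical.

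Several markers that define intestinal epithelium were listed at 0 in these libraries. Of 13 epithelial markers, CDX2, VIL1, KRT20, MUC2, LYZ and CHGA were at 0 in all 8 libraries and CDH1 was above 0 in a single library, at 0.221 FPKM. The keratins KRT8 and KRT18 were present, and the summed level of the epithelial list ran from 614 to 667 FPKM without cytokines and from 299 to 361 FPKM with them, nearly all of it from these keratins. LGR5, of the same list, went the other way, from 2.01 to 2.63 FPKM without cytokines to between 5.26 and 8.28 FPKM with them. The sum of 4 neuronal markers, mostly STMN2 and TUBB3, ran from 177 to 199.99 FPKM without cytokines and from 104 to 126 FPKM with them. SYP, of this list, went the other way, from 1.65 to 2.17 FPKM without cytokines to between 2.58 and 5.01 FPKM with them. ELAVL4 was listed at 0 in all 8 libraries. All 9 mesenchymal markers reached 1 FPKM in every group, with sums between 3629 and 4342 FPKM. Single members of that list moved with cytokines in either direction. COL3A1 was at 1014 to 1035 FPKM without and 466 to 709 FPKM with them, and PDGFRA at 29.8 to 32.3 and 14.7 to 19.4 FPKM. ACTA2 was at 532 to 719 and 1011 to 1048 FPKM, and LUM at 37.9 to 45.2 and 97.1 to 141 FPKM. The label of epithelial cells is therefore used below as a name only. In bulk RNA, fewer cells of a type and less RNA per cell cannot be told apart. Mitochondrial genes took 15.5% to 24.2% of the summed FPKM, with the highest share in normal replicate 2.

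Levels are in FPKM, which are read fragments divided by the length of the transcript and by the size of the library, so that genes can be compared per length. Differences are on the log2(FPKM + 1) scale with their standard error (SE). They come from limma fitted to 14206 genes, and a gene was called at a Benjamini-Hochberg adjusted p under 0.05. Of the 49 genes, 47 entered the fit. PSMA8, the alpha subunit known from testis, and PSMB11, known from thymic epithelium, were listed at 0 in all 8 libraries. The highest mean belonged to PSMB4, a non-catalytic beta subunit, which ranged from 204 to 223 FPKM.

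All 3 catalytic subunits of the immunoproteasome were higher in inflamed than in normal hIECs, whether or not PM10 was present, and PSMB9 differed the most of the 47 genes. PSMB9 (ENSG00000240065), the catalytic subunit that takes the place of PSMB6, was at 5.69 and 6.83 FPKM in normal hIECs, 5.20 and 6.55 in normal hIECs with PM10, 162 and 154 in inflamed hIECs, and 149 and 146 in inflamed hIECs with PM10. Every library with cytokines lay above every library without them, which also held for PSMB6 and PSMB7 below. The share of all genes that separate in this way was not counted. The ratio of means was 25.3 without PM10 and 25.1 with it. The log2 difference was 4.46 (SE 0.11, limma adjusted p = 9.79e-08) without PM10 and 4.44 (SE 0.11, limma adjusted p = 7.74e-08) with it.

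PSMB8 (ENSG00000204264), the chymotrypsin-like site, was at 19.7 and 16.8 FPKM in normal hIECs, 21.0 and 22.4 in normal hIECs with PM10, 92.3 and 101 in inflamed hIECs, and 92.3 and 86.9 in inflamed hIECs with PM10. The ranges with and without cytokines did not overlap, and the log2 difference was 2.34 (SE 0.08, limma adjusted p = 7.28e-07) without PM10 and 2.00 (SE 0.08, limma adjusted p = 1.18e-06) with it. PSMB10 (ENSG00000205220), the trypsin-like site, was at 12.9 and 14.2 FPKM in normal hIECs, 15.9 and 14.1 in normal hIECs with PM10, 57.2 and 56.9 in inflamed hIECs, and 56.9 and 54.3 in inflamed hIECs with PM10. These ranges did not overlap either, and the log2 differences of PSMB10 were 2.00 (SE 0.07, limma adjusted p = 7.91e-07) and 1.82 (SE 0.07, limma adjusted p = 9.25e-07).

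Immunoproteasome subunits are known to be abundant in leukocytes without added cytokine, so leukocyte markers were read beside these values. Of the leukocyte markers, CD14, CD3E, CSF1R, ITGAM and MS4A1 were listed at 0 in all 8 libraries, and PTPRC, which marks all leukocytes, was at 0 in the 4 libraries with cytokines. The summed level of that list was 0.959 to 3.87 FPKM without cytokines and 0.399 to 1.83 FPKM with them. CD68, of this list, was at 0 to 0.510 FPKM without cytokines. It was at 0.399 and 0.333 FPKM in inflamed hIECs and at 1.11 and 1.83 FPKM in inflamed hIECs with PM10. AIF1 went from 0.706 to 2.84 FPKM without cytokines to between 0 and 0.463 FPKM with them. The epithelial and neuronal lists and single mesenchymal markers moved with the cytokines as given above, and their part in the result was not tested.

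**Figure D1:**
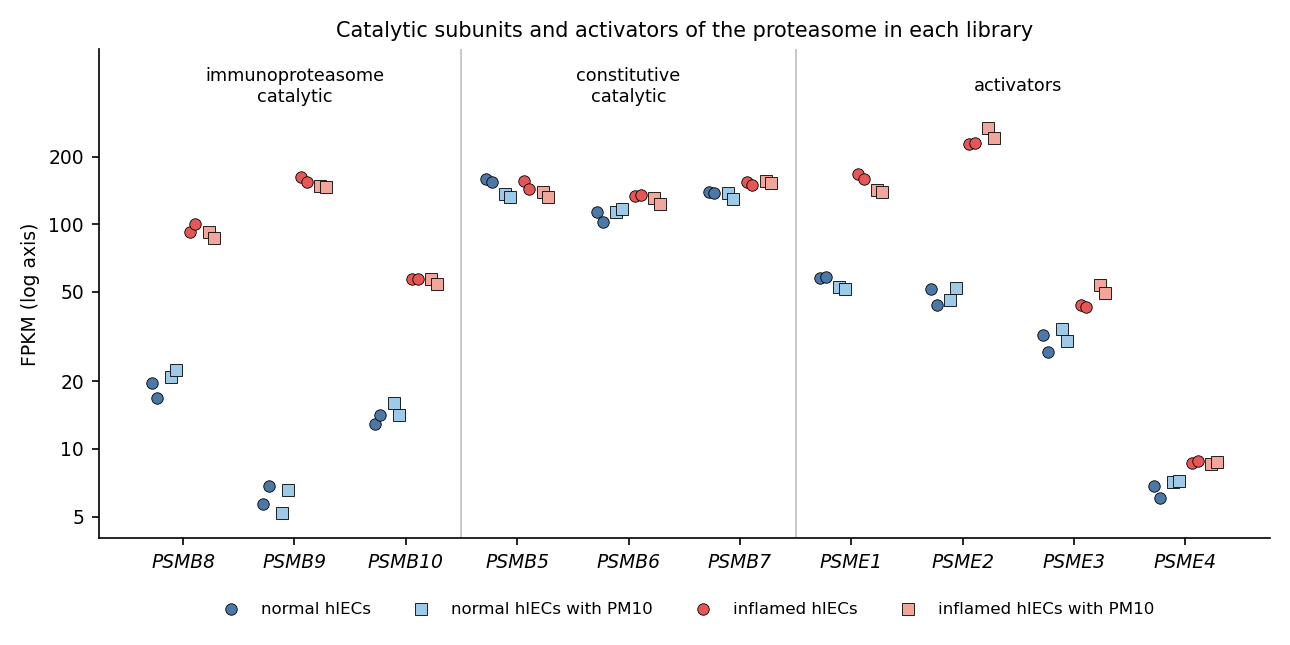
FPKM (log axis) of the 3 immunoproteasome catalytic subunits, their 3 constitutive counterparts and the 4 activators, with a point for each library and a colour for each group. For every gene shown except PSMB5, the 4 libraries with cytokines lie above the 4 without. The gap is narrow for PSMB6, from at most 117 FPKM without to at least 123 FPKM with them. The points of PSMB5 overlap.

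The constitutive counterparts moved far less. PSMB5 (ENSG00000100804), which PSMB8 replaces, was at 159 and 155 FPKM in normal hIECs, 137 and 132 in normal hIECs with PM10, 155 and 143 in inflamed hIECs, and 138 and 133 in inflamed hIECs with PM10. The groups with and without cytokines overlapped, and the log2 difference of PSMB5 was -0.07 (95% interval -0.20 to 0.06, limma adjusted p = 0.306) without PM10 and 0.01 (-0.11 to 0.14, limma adjusted p = 0.828) with it. PSMB6, which PSMB9 replaces, was at 114 and 102 FPKM in normal hIECs, 113 and 117 in normal hIECs with PM10, 134 and 134 in inflamed hIECs, and 131 and 123 in inflamed hIECs with PM10. PSMB6 was higher by 0.32 on the log2 scale (SE 0.06, limma adjusted p = 0.00395) without PM10, and with PM10 the difference of 0.14 was not called (limma adjusted p = 0.0857). PSMB7, which PSMB10 replaces, was at 139 and 138 FPKM in normal hIECs, 137 and 130 in normal hIECs with PM10, 154 and 149 in inflamed hIECs, and 155 and 153 in inflamed hIECs with PM10. Its log2 difference was 0.13 (SE 0.05, limma adjusted p = 0.0497) without PM10, a call that 7 of 14 alternative settings did not keep (limma adjusted p = 0.0781 without normal replicate 2, 0.223 without inflamed replicate 1 and 0.0939 without inflamed replicate 2), and 0.20 (SE 0.05, limma adjusted p = 0.00579) with PM10.

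Because each immunoproteasome subunit takes the place of a known constitutive subunit, the 3 pairs were compared as shares of their summed FPKM. PSMB9 made up 4.77% and 6.28% of PSMB9 plus PSMB6 in normal hIECs, 4.39% and 5.30% in normal hIECs with PM10, 54.7% and 53.4% in inflamed hIECs, and 53.1% and 54.4% in inflamed hIECs with PM10. Over both PM10 levels this was 5.19% ± 0.817 (SD, n = 4) without cytokines and 53.9% ± 0.781 (SD, n = 4) with them. In listed FPKM, PSMB9 was thus slightly above PSMB6 in every library with cytokines. Exons of PSMB9 overlap those of PSMB8 and PSMB8-AS1, as given below, and the effect of this on the narrow margin was not tested. The other pairs stayed below an even share.

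PSMB8 made up 11.1% and 9.81% of PSMB8 plus PSMB5 in normal hIECs, 13.3% and 14.5% in normal hIECs with PM10, 37.3% and 41.2% in inflamed hIECs, and 40.0% and 39.6% in inflamed hIECs with PM10. The mean share was 12.2% ± 2.13 (SD, n = 4) without and 39.5% ± 1.64 (SD, n = 4) with cytokines. PSMB10 made up 8.45% and 9.35% of PSMB10 plus PSMB7 in normal hIECs, 10.4% and 9.80% in normal hIECs with PM10, 27.1% and 27.6% in inflamed hIECs, and 26.8% and 26.2% in inflamed hIECs with PM10. The mean share was 9.50% ± 0.830 (SD, n = 4) without and 27.0% ± 0.584 (SD, n = 4) with cytokines. Each of the 3 differences gave p = 0.0286 in a two-sided exact permutation test of 4 libraries against 4, and 0.0286 after adjustment over the 3 pairs. This is the smallest p that such a test allows. The libraries were permuted without regard to PM10, as if those with and without it were alike. For PSMB8, however, the mean share without cytokines was 10.4% without PM10 and 13.9% with it. Within a PM10 level the design has 2 libraries against 2, for which no exact p can go below 0.333. The share of PSMB8 differed by 28.8 percentage points between the groups without PM10 and by 25.9 between those with it. All 3 immunoproteasome subunits together held 9.32% ± 0.818 (SD, n = 4) of the FPKM of the 6 catalytic subunits without cytokines and 41.5% ± 0.464 (SD, n = 4) with them.

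**Figure D2:**
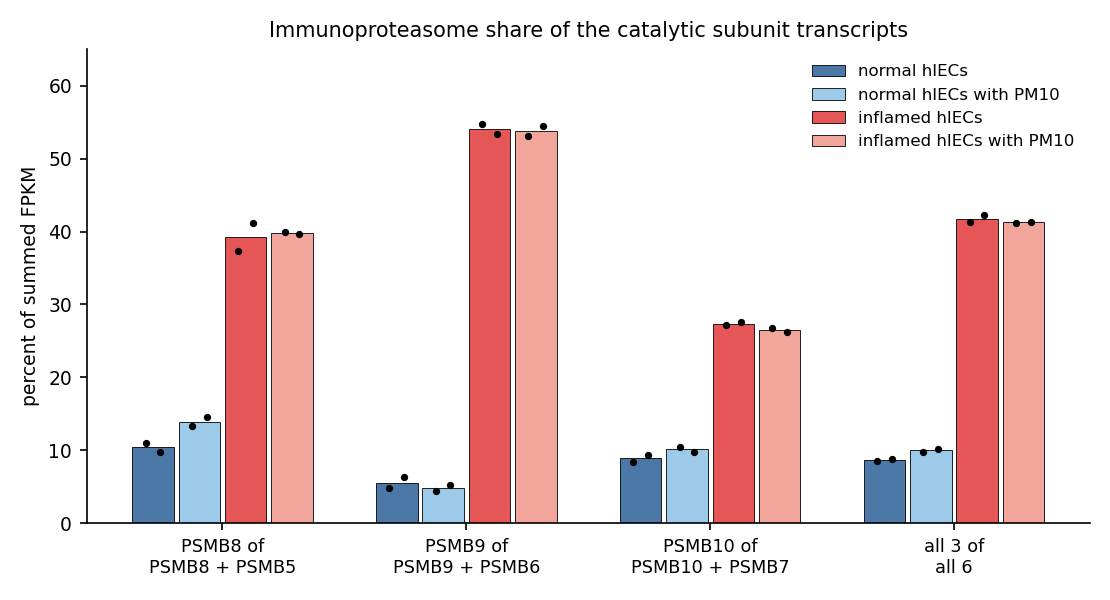
Share of each immunoproteasome subunit in the summed FPKM of its pair, and of all 3 in all 6 catalytic subunits, in percent. Bars are means of 2 libraries and points are the libraries: PSMB9 passes 50% with cytokines, and PSMB10 reaches 26.2% to 27.6%.

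The activators PSME1 and PSME2, the subunits of PA28, were higher with cytokines as well. PSME2 was at 51.3 and 43.9 FPKM in normal hIECs, 46.2 and 51.9 in normal hIECs with PM10, 227 and 231 in inflamed hIECs, and 269 and 241 in inflamed hIECs with PM10. PSME1 was at 57.3 and 58.1 FPKM in normal hIECs, 52.5 and 51.3 in normal hIECs with PM10, 167 and 159 in inflamed hIECs, and 142 and 139.7 in inflamed hIECs with PM10. Neither gene overlapped between libraries with and without cytokines. The log2 difference of PSME2 was 2.25 (SE 0.09, limma adjusted p = 1.36e-06) without PM10 and 2.35 (SE 0.09, limma adjusted p = 8.29e-07) with it. For PSME1 it was 1.48 (SE 0.04, limma adjusted p = 3.6e-07) and 1.42 (SE 0.04, limma adjusted p = 3.31e-07). The other activators, the nuclear PSME3 (PA28 gamma) and the large PSME4 (PA200), were also called higher, by 0.54 and 0.39 without PM10 and by 0.66 and 0.25 with it. The call of PSME4 with PM10 was lost without either library of normal hIECs with PM10 or without inflamed PM10 replicate 2 (limma adjusted p = 0.0511 to 0.0646).

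The genomic position of these genes bears on their values, since the libraries were not strand-specific and reads from overlapping genes cannot be told apart. In GRCh38 (GENCODE v44), PSMB8 lies at chr6:32840717-32844679 on the minus strand and PSMB9 at chr6:32844136-32859851 on the plus strand, in the MHC class II region, and their annotated exons overlap each other and those of the antisense gene PSMB8-AS1. PSMB8-AS1 itself was at 0.384 to 0.742 FPKM without and 4.17 to 6.41 FPKM with cytokines. PSMB10 lies at chr16:67934506-67936864 (minus strand), where its exons overlap 1 other annotated gene. PSME1 lies at chr14:24136163-24138967 (plus strand), with exons that overlap those of EMC9, and PSME2 at chr14:24143362-24147570 (minus strand), with exons that overlap those of 3 genes, RNF31 among them. EMC9 was at 9.18 to 12.3 FPKM over all libraries and RNF31 at 0.830 to 2.38 FPKM, well below PSME1 and PSME2. No exon of another gene overlaps PSMB5, PSMB6 or PSMB7.

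Since the immunoproteasome and PA28 genes moved together, their promoters were searched for short motifs. The letters searched, on both strands, were TTCNNNGAA for the interferon gamma activated site (GAS), GAAANNGAA for a site of the interferon regulatory factors (IRF), and TGACNNNGC for the antioxidant response element (ARE, bound by NFE2L1 and NFE2L2). The GAS and IRF letters stand for factors that IFNγ is known to activate, and the ARE letters for other factors. Promoters came from the RefSeq table for GRCh38.p14, which matched 43 of the 49 genes. Matches of the GAS and IRF letters can share bases. The following stretches of 30 bases are shown because they hold the IRF letters at the 4 immunoproteasome and PA28 genes that have them, and at TAP1, the gene next to PSMB9. Each reads 5′ to 3′ on the strand of its gene, and capitals mark the match.

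PSMB8, chr6:32844032-32844061, minus strand: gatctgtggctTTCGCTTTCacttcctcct
PSMB10, chr16:67936853-67936882, minus strand: agggtaaaggcGAAAGCGAAagcaggaagt
PSME1, chr14:24136189-24136218, plus strand: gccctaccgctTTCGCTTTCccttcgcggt
PSME2, chr14:24146620-24146649, minus strand: acctggggagtGAAAGCGAAagcccgggcg
TAP1, chr6:32853816-32853845, minus strand: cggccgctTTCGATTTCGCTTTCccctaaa

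The matched letters of PSMB10 and PSME2 are identical, and those of PSMB8 and PSME1 are their reverse complement. TAP1 has a pair of overlapping matches, which end with the same letters as PSMB8. The match of PSMB10 lies 21 to 13 bases before the RefSeq start and that of PSME2 lies 28 to 20 bases before it. The match of PSMB8 spans the start, from base 3 before it to base 6 after it, and that of PSME1 lies at bases 7 to 15 after it. Both were seen only in the window that was extended by 50 bases after the values were known. The start of PSMB9 (base 32854192, plus strand) and that of TAP1 (base 32853704, minus strand) face away from each other. The TAP1 stretch shown above lies between these starts. The window of PSMB9 did not reach that stretch and held neither the GAS nor the IRF letters. That says only that these letters are not in this window. PSMB8 also had a match of the GAS letters 65 to 57 bases before its start:

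PSMB8, chr6:32844094-32844123, minus strand: taactgtccttTTCTCGGAAaaggcagggg

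In the 250 bases before the start, the IRF letters were found at 5 of the 43 genes (PSMA4, PSMB10, PSMB4, PSME2 and PSMG4) against 8.41% of all 27305 genes in the table. The GAS letters were found at 7 of 43, PSMB5 among them, against 8.09% of all genes. The ARE letters were found at 13 of 43 genes (30.2%) against 13.2% of all genes, among them the activators PSME1, PSME2 and PSME4, 4 assembly chaperones and PSMB9. With the window extended to 50 bases after the start, the IRF letters were found at 8 genes (18.6%) against 9.86% of all genes, and the ARE letters at 15 genes (34.9%) against 16.1%. A match is a description of the letters and not of binding, and genes that share a start region are not independent.

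Over the whole set, 28 of the 47 genes tested were called higher in inflamed than in normal hIECs and 2 were called lower, where 25.9% of all 14206 genes were called higher and 30.3% lower. The median log2 difference of the 47 genes was 0.34, against -0.03 over all genes. In the libraries with PM10, the cytokine comparison called 28 genes higher and 3 lower, where 25.8% of all genes were called higher and 39.6% lower, and the median was 0.23 against -0.11 over all genes. These comparisons share no library, but they come from the same fit, with a spread per gene pooled over all 8 libraries. Between them, 26 genes were called higher in both and 2 lower in both. The share of all genes called the same way in both was not counted. PSMB6 and PSMC5 were called higher only without PM10, and PSMB1 and PSMG4 only with it. Without the 5 genes of the immunoproteasome and PA28, 23 of the other 42 genes were called higher and 2 lower without PM10, with a median of 0.28. The 49 genes together held 0.564% to 0.653% of the summed FPKM in libraries without cytokines and 0.910% to 0.943% in libraries with them.

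**Figure D3:**
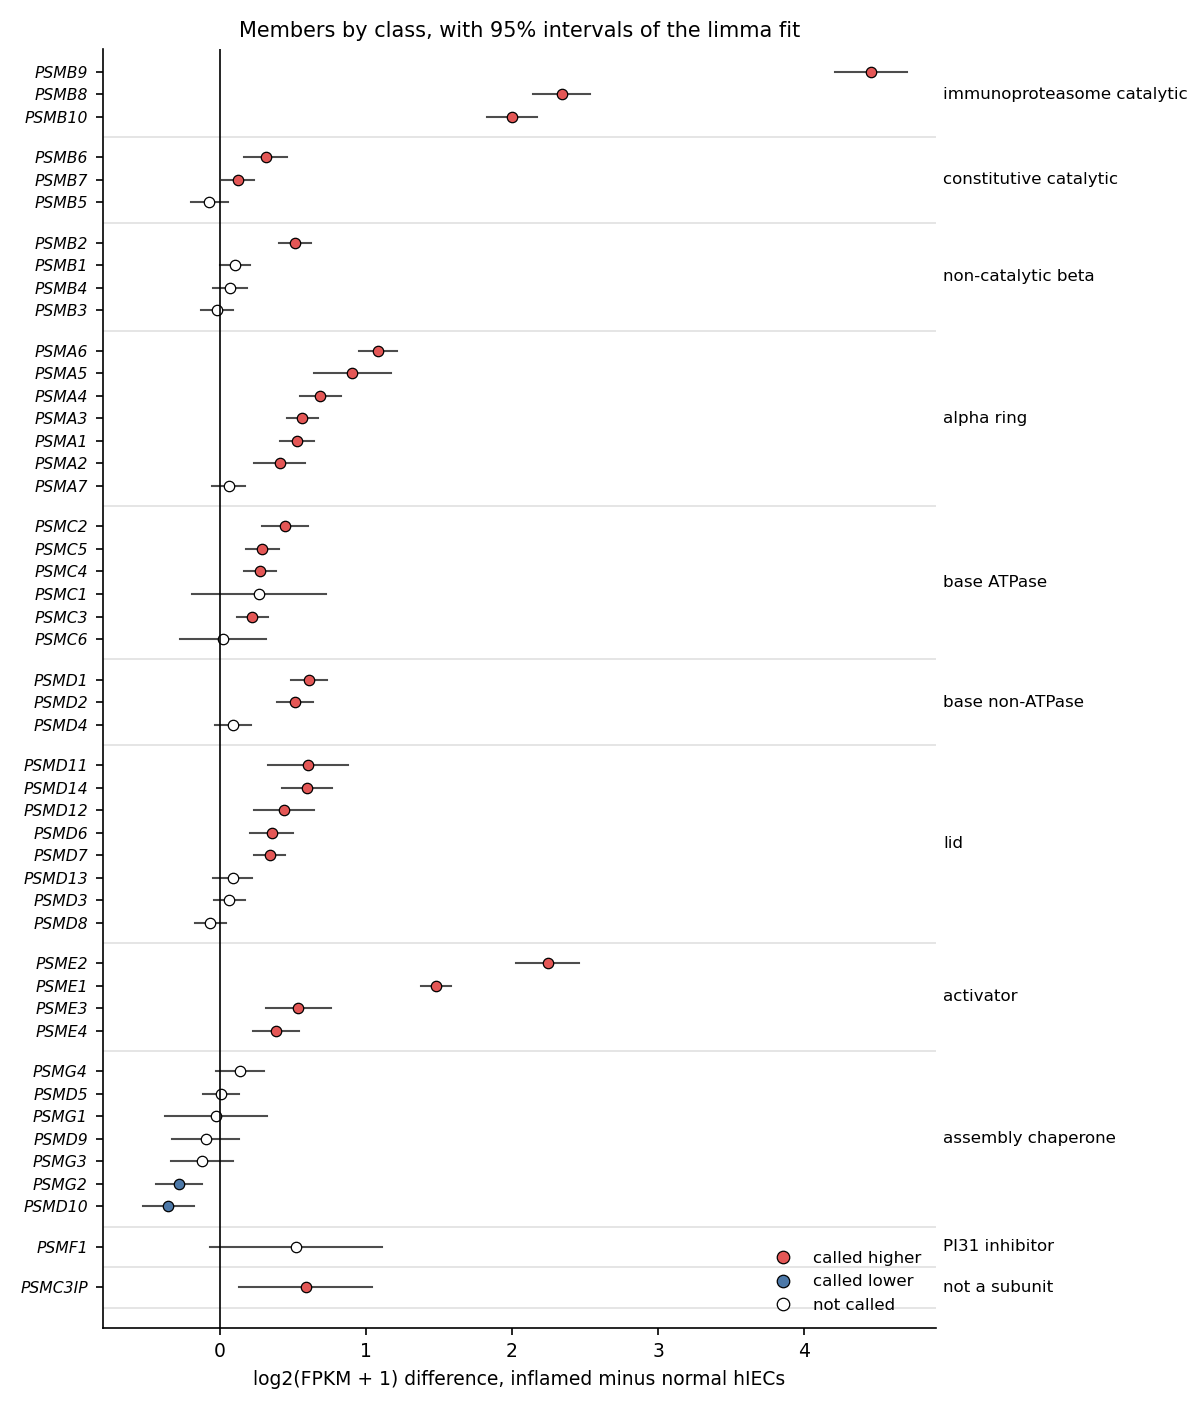
Difference between inflamed and normal hIECs on the log2(FPKM + 1) scale for the 47 genes tested, grouped by class, with 95% intervals from limma and colours for the calls at an adjusted p under 0.05. Apart from the immunoproteasome, PSME1 and PSME2, the differences run from -0.35 for PSMD10 to 1.08 for PSMA6.

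The alpha ring, which forms the gate of the core, held the genes with the largest differences in the constitutive core, PSMA6 and PSMA5. Of its 7 genes tested, 6 were called higher both without and with PM10, against 25.9% and 25.8% of all genes. The medians were 0.57 and 0.51. PSMA6 was at 84.2 and 79.0 FPKM in normal hIECs, 94.0 and 89.5 in normal hIECs with PM10, 179 and 169 in inflamed hIECs, and 161 and 168 in inflamed hIECs with PM10. The groups of PSMA6 did not overlap, and its log2 difference was 1.08 (SE 0.06, limma adjusted p = 4.73e-06) without PM10 and 0.84 (SE 0.06, limma adjusted p = 1.18e-05) with it. PSMA7 was the alpha subunit that was not called, at 0.06 (95% interval -0.05 to 0.17) without PM10 and -0.11 (-0.22 to -0.00) with it. PSMA5 was higher by 0.91 (SE 0.11, limma adjusted p = 0.000376) and 0.64 (SE 0.11, limma adjusted p = 0.00178). PSMA2 was higher by 0.41 and 0.23, and the latter call was lost without either library of normal hIECs with PM10 or without inflamed PM10 replicate 1 (limma adjusted p = 0.0819 to 0.145).

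Of the 4 beta subunits without an active site, PSMB2 differed the most. It was higher by 0.51 (SE 0.05, limma adjusted p = 8.17e-05) without PM10 and by 0.49 (SE 0.05, limma adjusted p = 7.99e-05) with it. PSMB1 was called only with PM10, at 0.12, and not when any of the 4 libraries compared was left out (limma adjusted p = 0.084 to 0.196). PSMB3 and PSMB4 were not called, with log2 differences between -0.06 and 0.07. With the 3 constitutive catalytic subunits, the constitutive core counted 9 of 14 genes called higher and none called lower by limma in either comparison (10 of the 14 had an unadjusted p under 0.05 in each). Of all genes, 25.9% were called higher and 30.3% lower without PM10, and 25.8% and 39.6% with it. The share of all genes with an unadjusted p under 0.05 was not counted. With PM10, PSMA7 was called lower after quantile normalization and with only the groups compared, and so was PSMD8, a lid subunit, after quantile normalization, which took the count of genes called lower from 3 to 5.

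Of the 17 genes of the regulatory particle, 11 were called higher without PM10 and 10 with it, and none was called lower by limma in either (11 had an unadjusted p under 0.05 in each). The shares of all genes called higher were 25.9% and 25.8%, and those called lower were 30.3% and 39.6%. Among the ATPases of the base, PSMC2, PSMC3, PSMC4 and PSMC5 were called higher without PM10, by 0.45, 0.22, 0.28 and 0.29 on the log2 scale. With PM10, PSMC2 was at 0.27 and its call was lost without normal PM10 replicate 1 (limma adjusted p = 0.0501). PSMC6 gave the lowest value of that class, 0.03 (95% interval -0.27 to 0.32). PSMD1 and PSMD2, the scaffold subunits of the base, were higher by 0.62 and 0.52 without PM10 and by 0.70 and 0.74 with it, whereas PSMD4, a ubiquitin receptor, was not called (0.09 and -0.07). In the lid, PSMD6, PSMD7, PSMD11, PSMD12 and PSMD14 were called higher in both comparisons, PSMD7 with PM10 not without normal PM10 replicate 2 or inflamed PM10 replicate 1 (limma adjusted p = 0.0715 and 0.0572). PSMD11 led the class at 0.61 (SE 0.12, limma adjusted p = 0.00328) and 0.66 (SE 0.12, limma adjusted p = 0.00165). PSMD14, the deubiquitinase of the lid, rose from 41.9 and 36.0 FPKM in normal hIECs to 61.1 and 57.6 FPKM in inflamed hIECs. PSMD8 had the lowest value of the lid, -0.06 (95% interval -0.17 to 0.04).

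The assembly chaperones help build the complex and leave it. None of the 7 was called higher by limma without PM10 and 2 were called lower, a share near the 30.3% of all genes called lower in that comparison, and 2 had an unadjusted p under 0.05. PSMD10 (gankyrin), a chaperone of the base, was at 46.4 and 39.6 FPKM in normal hIECs, 46.9 and 45.5 in normal hIECs with PM10, 34.0 and 32.9 in inflamed hIECs, and 36.9 and 36.2 in inflamed hIECs with PM10. Its libraries with cytokines all lay below those without, and it fell by 0.35 on the log2 scale (SE 0.07, limma adjusted p = 0.00548) without PM10 and fell by 0.33 (SE 0.07, limma adjusted p = 0.00585) with it. PSMG2, a chaperone of the alpha ring, fell by 0.28 (SE 0.07, limma adjusted p = 0.00983) and by 0.25 (SE 0.07, limma adjusted p = 0.0124), and its exons overlap those of CEP76 and SPIRE1. The calls of PSMG2 were lost without inflamed replicate 1 (limma adjusted p = 0.0529), normal PM10 replicate 1 (0.0806) or inflamed PM10 replicate 1 (0.0611). PSMG3 was called lower only in the libraries with PM10, at -0.44, and PSMG4 was called higher only there, at 0.36. PSMF1 was not called in either comparison, and its libraries in inflamed hIECs with PM10 stood apart, at 28.6 and 15.8 FPKM. Without the first of these libraries, PSMF1 was called lower in the comparison with PM10. PSMC3IP, which is not a subunit, was at 1.69 to 3.19 FPKM without cytokines and 4.35 to 6.13 FPKM with them. Its call without PM10 was lost without normal replicate 2 or either library of inflamed hIECs (limma adjusted p = 0.0637 to 0.173).

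PM10 by itself moved few of these genes. In normal hIECs 1 of 47 was called higher and 1 lower with PM10, where 5.51% of all genes were called higher and 3.72% lower. These shares depended on the fit. With only the groups compared, 9 of all 14206 genes were called higher and 14 lower. PSMD3, a lid subunit, was at 53.98 and 51.8 FPKM in normal hIECs and at 62.0 and 59.9 FPKM with PM10, a log2 difference of 0.20 (SE 0.05, limma adjusted p = 0.0393). PSMB5 was lower by the values given above, with a log2 difference of -0.22 (SE 0.05, limma adjusted p = 0.0474). Neither gene overlapped between these groups of 2 libraries, but neither did some genes that were not called, such as PSMA3 and PSMC6. Both calls were lost when either library with PM10 or normal replicate 2 was left out (limma adjusted p = 0.0771 to 0.199), and without normal replicate 1 there were 10 genes called higher, PSMB8 among them, and none called lower by limma. The split also turned with scaling, from 1 higher and 1 lower to 0 higher and 2 lower after median centring and to 4 higher and 0 lower after equal sums without mitochondrial genes. None of the 3 immunoproteasome subunits was called, with log2 differences of 0.24 for PSMB8 (95% interval 0.04 to 0.43, limma adjusted p = 0.113), -0.08 for PSMB9 (-0.33 to 0.17) and 0.14 for PSMB10 (-0.03 to 0.31).

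In inflamed hIECs, 2 of 47 were called higher and 3 lower with PM10, where 6.22% of all genes were called higher and 9.02% lower. PSMD2 was at 80.4 FPKM in both libraries of inflamed hIECs and at 104 and 103 FPKM with PM10. These groups did not overlap, but neither did those of some genes that were not called there, such as PSMB2 and PSMD1. PSMD2 was higher by 0.36 (SE 0.05, limma adjusted p = 0.00587), a call that all 14 alternative settings kept. PSMD5, a chaperone of the base, was at 11.3 and 10.9 FPKM in inflamed hIECs and at 13.6 and 13.7 FPKM with PM10, a log2 difference of 0.27 (SE 0.05, limma adjusted p = 0.0165). PSMA5 was at 51.0 and 58.5 FPKM and at 37.4 and 40.7 FPKM with PM10, and it fell by 0.47 (SE 0.11, limma adjusted p = 0.0322). PSME1 fell by 0.21 (SE 0.04, limma adjusted p = 0.0233) from the values given above. PSMG3, a chaperone of the alpha ring, was at 18.0 and 17.2 FPKM and at 14.6 and 11.9 FPKM with PM10, and it fell by 0.39 (SE 0.09, limma adjusted p = 0.0306). Leaving out any of the 4 libraries compared removed the calls of PSMD5, PSMA5 and PSME1 (limma adjusted p = 0.0668 to 0.159), and that of PSMG3 held only without inflamed PM10 replicate 1, so that 1 or 2 calls were left. The immunoproteasome subunits gave -0.10 for PSMB8 (95% interval -0.30 to 0.09), -0.10 for PSMB9 (-0.35 to 0.15) and -0.04 for PSMB10 (-0.21 to 0.13).

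The difference between these PM10 effects was tested as an interaction with the cytokines. Before adjustment, 8 of the 47 genes had a limma p under 0.05, and the share of all genes at that threshold was not counted. After adjustment, none of the 47 was called. Of all genes, 2.11% were called with a higher and 4.48% with a lower PM10 effect in inflamed hIECs. limma without the trend called none of the 47 either. For PSMB8 the interaction was -0.34 (95% interval -0.62 to -0.06, limma adjusted p = 0.138) and for PSMD2 it was 0.23 (0.05 to 0.40, limma adjusted p = 0.122). Without normal replicate 1, PSMB8 and PSMC2 were called with a lower PM10 effect, and without normal replicate 2, PSMD2 was called with a higher one. A different effect of PM10 in inflamed hIECs was therefore not shown for any of these genes with all 8 libraries in this fit.

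**Figure D4:**
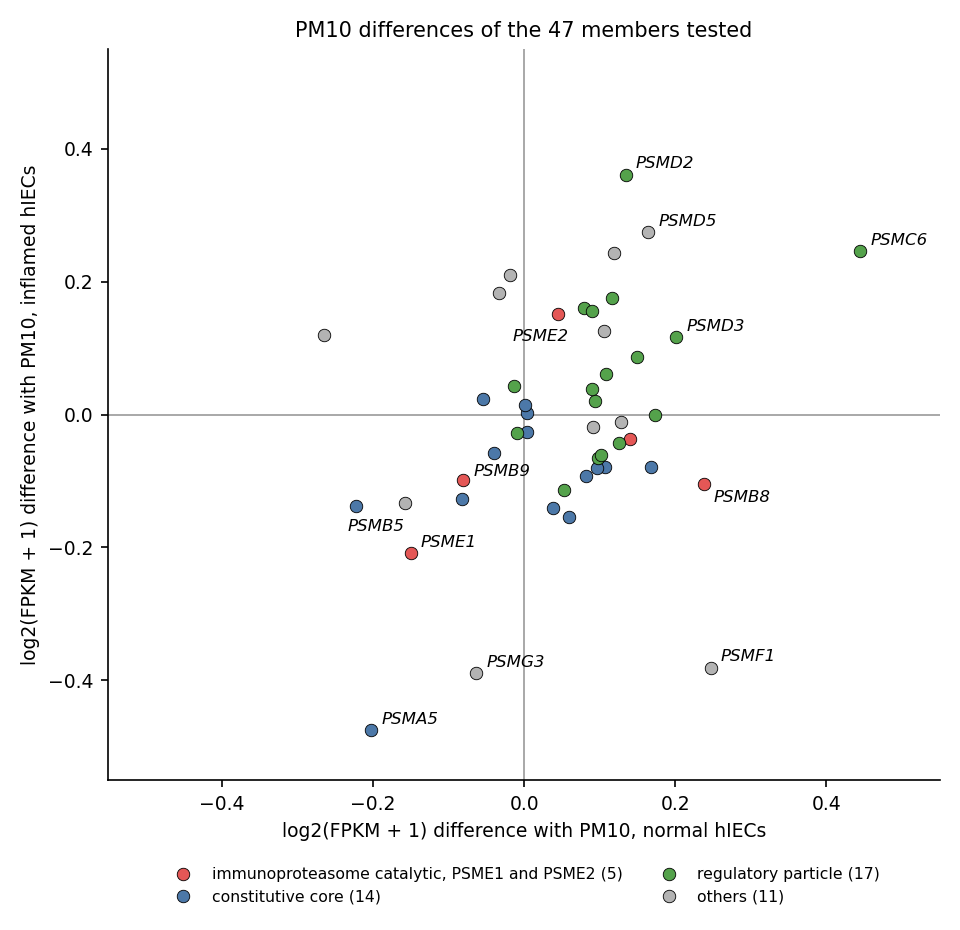
Difference with PM10 on the log2(FPKM + 1) scale in normal hIECs (horizontal axis) and inflamed hIECs (vertical axis), which share no library, for the 47 genes tested, coloured by class. All points lie within 0.5 of zero on both axes, and PSMA5, PSMG3, PSME1, PSMD2 and PSMD5 are the genes called in inflamed hIECs.

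Other genes of the pathway were read from lists. Of 9 proteasome genes outside the symbol rule, 5 were called higher without PM10 (ADRM1, ECPAS, POMP, UCHL5 and USP14). Of all genes, 25.9% were called higher there. With PM10, 4 were called higher and AKIRIN2, which is known to carry proteasomes into the nucleus, was called lower. Of all genes, 25.8% were called higher and 39.6% lower in that comparison. The call of UCHL5 without PM10 was lost without inflamed replicate 1, that of ECPAS without normal replicate 2 or either library of inflamed hIECs, and that of AKIRIN2 when any of the 4 libraries with PM10 was left out (limma adjusted p = 0.0515 to 0.169). POMP, the chaperone that matures new cores, was at 62.3 to 68.1 FPKM in normal hIECs and at 102 to 103 FPKM in inflamed hIECs, a log2 difference of 0.64 (SE 0.06, limma adjusted p = 0.000129). Unlike PSMD10 and PSMG2, POMP was thus higher with cytokines. Of 5 regulators of constitutive proteasome genes, 4 were called higher without PM10 and 3 with it, against 25.9% and 25.8% of all genes. NFE2L1, the transcription factor that raises proteasome genes when the protease is inhibited, was higher by 0.55 (SE 0.05, limma adjusted p = 4.84e-05) without PM10. It was also called higher with PM10 in normal hIECs, by 0.20 (SE 0.05, limma adjusted p = 0.0408), and in inflamed hIECs, by 0.37 (SE 0.05, limma adjusted p = 0.00287). The call in normal hIECs was lost without normal replicate 2 or either library with PM10 (limma adjusted p = 0.0818 to 0.18).

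Among the interferon and NF-κB regulators, IRF1, IRF2, IRF9, NFKB1, NLRC5 and STAT2 were called higher with cytokines at either PM10 level, although the call of STAT2 with PM10 was lost without normal PM10 replicate 2 or either library of inflamed hIECs with PM10 (limma adjusted p = 0.126 to 0.221). IRF1 was higher by 4.15 and 3.61, and NLRC5, the transactivator of MHC class I genes, by 3.85 and 3.02. In normal hIECs, where 5.51% of all genes were called higher with PM10, no immunoproteasome subunit was called. IRF1, NFKB1 and STAT2 were called higher in that comparison, with IRF1 at 0.44 (SE 0.11, limma adjusted p = 0.0488). These 3 calls were lost without normal replicate 2 or either library with PM10 (limma adjusted p = 0.0616 to 0.211). Of 14 peptide loading genes, which act after the proteasome in MHC class I presentation, 14 were called higher without PM10 and 12 with it. The shares of all genes called higher were 25.9% and 25.8%. TAP1, the peptide transporter subunit next to PSMB9, was at 5.18 to 6.64 FPKM without and 167 to 181 FPKM with cytokines, and its log2 difference of 4.63 (SE 0.09, limma adjusted p = 3.33e-08) stood beside the 4.46 of PSMB9.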

How the data were processed

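Poly-A RNA from 8 libraries of H9-derived 2D hIECs was sequenced as paired ends without strand information. Per the labels and the study's methods, the authors trimmed reads with Cutadapt and Sickle, aligned them to GRCh38 (hg38) with HISAT2 and quantified genes with StringTie. The authors deposited FPKM values per gene and library. No read counts or depths are given, so depth is unknown, no counting interval can be had, and a value of 0 is reported only as listed. The annotation release is not given in the sources used here.

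Values were used as deposited, as log2(FPKM + 1), for genes of at least 1 FPKM in at least 2 libraries. limma 3.58.1 (R 4.3.3) with a variance trend was fitted to all 8 libraries with 1 mean per group and 4 residual degrees of freedom, giving 5 comparisons, each adjusted by Benjamini-Hochberg over all 14206 genes. All tests were two-sided. Shares were tested by exact permutation (scipy 1.17.1). Coordinates came from GENCODE v44 and promoters from RefSeq, both on GRCh38.

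The genes and lists were chosen with earlier results of these data known. Beside counts for every class, the text names the immunoproteasome, PA28 and constitutive catalytic genes, the highest and lowest difference of each class, every gene called for PM10, genes at 0 and the most abundant gene. Other subunits were named after their values were seen, and some genes of the related and marker lists are not reported here. The alternatives were another pseudocount, other filters on low values, 3 scalings, protein-coding genes only, no trend, a replicate block, only the groups compared, and each library left out.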

Additional observations from a re-analysis of the deposited data

How the results depend on the processing

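With 2 libraries per group and no read counts, small differences rest on the spread of single libraries, and normal hIECs had the widest spread (median SD of the 47 genes 0.09 on the log2 scale, against 0.03 in each other group). Over the genes described and 13 related genes there were 98 called pairs of gene and comparison. Of these, 74 kept their call under every alternative run, and none of 1372 values turned in direction, while 114 were no longer called. The counts of 30 genes called without PM10 and 31 with PM10 for the cytokines stayed within 1.5 times. For PM10 in normal hIECs the count of 2 became 1 with a pseudocount of 0.1, without a filter, after quantile normalization and with the replicate block, 4 after equal sums without mitochondrial genes, and 0 without the trend or with only the groups compared. It ranged from 0 to 10 when a library was left out. For PM10 in inflamed hIECs the count of 5 ranged from 1 to 2 when a library of these groups was left out. For the interaction the count of 0 became 1 (PSMD2) after median centring and ranged from 0 to 2 when a library was left out; the fit with only the groups compared is the same as the fit with all libraries and was not run for it. A group left with 1 library was assumed to vary like the others. The cause of the other moves was not tested. The differences in share kept their size when a library was left out, at 26.6 to 28.1 percentage points for PSMB8, 48.5 to 49.1 for PSMB9 and 17.1 to 17.8 for PSMB10, but 4 against 3 libraries cannot give an exact permutation p below 0.0571. Libraries with the same number did not deviate together (correlations of -0.0015 to 0.079 across 14206 genes, which are not independent replicates), so the numbers were not taken as pairs, and the replicate block moved no other count of calls beyond 1.5 times.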
